A study of Mus musculus with 6 samples.

Results

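The genes that mark oligodendrocyte precursors, Pdgfra, Cspg4, Gpr17, Sox10, Olig1 and Olig2, were followed in the hippocampus of IκBα-deficient mice and littermate controls. They were read through all probe sets for which 1 of these 6 was the only gene symbol, which gave 11 of the 45037 probe sets tested, or 6 of 18193 named genes. The 3 IκBα-deficient animals carried the genotype IκBαfl/-;Nestin-Cre, and the 3 littermate controls were IκBαfl/- without the recombinase, so both groups had a single floxed allele and a null allele. All 6 animals were 2 to 3 months old, and total RNA of each hippocampus went onto 1 Affymetrix mouse array. Nestin-Cre acts in the neural lineage, which includes oligodendrocyte precursors. No array stands for a purified cell type, so fewer precursors and less RNA per precursor cannot be told apart.

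Oligodendrocyte precursors are the dividing glia of the adult brain that give rise to myelinating oligodendrocytes. They sense platelet-derived growth factor through Pdgfra, lose Pdgfra and Cspg4 as they commit, pass through a stage marked by Gpr17, and then switch on myelin genes under Sox10 and Olig2. IκBα, the product of Nfkbia, holds NF-κB transcription factors in the cytoplasm.

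Levels are the authors' RMA values on the log2 scale, where 1 unit is a doubling, and differences are IκBα-deficient minus control. RMA compresses differences between low values, and levels of different probe sets cannot be set against each other. The array medians lay between 6.08 and 6.13. With 3 arrays per group the standard errors are limma's moderated ones, which draw on the spread of all probe sets as well as on that of the probe set itself. All 11 probe sets gave a difference whose 95% interval included 0. The differences lay between -0.13 and 0.12, 7 of them positive and 4 negative, beside 49.8% positive over all probe sets. The count past the threshold, an adjusted p of 0.05 in limma over all 45037 probe sets, was 0 of 11, beside 0.00666% of all probe sets, and at an unadjusted p under 0.05 it was also 0 of 11, beside 3.34%. All 11 adjusted p values rounded to 1.00 (limma, Benjamini-Hochberg).

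The targeted gene followed the labels. All 5 of its probe sets had negative differences, 4 of them without overlap between the groups. The 3 called lower were the only probe sets called anywhere on the array, and the brightest, 1420088_at of Nfkbia, missed the threshold (difference -1.40, adjusted p = 0.0629, limma). Probe set 1438157_s_at of Nfkbia was at 7.04, 7.07 and 6.86 on IκBα-deficient arrays 1, 2 and 3, against 8.81, 8.71 and 8.78 on control arrays 1, 2 and 3 (difference -1.77 ± 0.08 SE, adjusted p = 0.00183, limma). Whether its probes lie in the deleted part is not known from the labels. A few neuronal genes were read, and they do not by themselves identify the labelled tissue. The excitatory neuron genes Slc17a7 and Camk2a lay far above the array medians on all 6 arrays, and Prox1, a gene of dentate granule cells, was at 6.75 ± 0.05 in IκBα-deficient animals and 6.81 ± 0.15 in controls (SD, n = 3 each). IκBα-deficient array 2 stood apart in its RNA controls. Its probe sets at the 3′ end of the Gapdh and β-actin controls exceeded those at the 5′ end by 2.02, against 0.65 and 0.61 on the other IκBα-deficient arrays and 0.65, 0.73 and 0.56 on control arrays.

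Pdgfra encodes the receptor for platelet-derived growth factor A, the main mitogen of precursors. Its brightest probe set, 1421917_at, was at 10.23, 10.26 and 10.12 in IκBα-deficient animals, against 10.25, 10.06 and 10.16 in controls. The groups overlapped, with control array 1 almost as high as the highest IκBα-deficient array. The difference was 0.05 ± 0.08 (SE), with a 95% interval of -0.14 to 0.23, or 0.907-fold to 1.18-fold. It was -0.0005 without control array 2, the lowest of the 6 arrays for this probe set. The other probe sets of Pdgfra were dim, below the array medians. Probe set 1421916_at was at 5.08, 4.85 and 5.34 in IκBα-deficient animals, against 5.18, 5.12 and 4.95 in controls. Probe set 1438946_at was at 4.97, 4.70 and 4.50 in IκBα-deficient animals, against 4.82, 4.38 and 4.89 in controls. The spread within a group was nearly as wide as the whole range in both, and their differences, 0.01 ± 0.13 and 0.02 ± 0.17 (SE), changed sign with single arrays left out. Without control array 2 the difference of 1438946_at was -0.13, and without IκBα-deficient array 1 it was -0.10. For 1421916_at it was -0.12 without IκBα-deficient array 3 and -0.06 without control array 3.

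Cspg4 encodes the NG2 proteoglycan on the surface of precursors, and pericytes of the vessel wall also make it. Probe set 1450944_at was at 7.39, 7.44 and 7.37 in IκBα-deficient animals, against 7.56, 7.59 and 7.37 in controls. Controls 1 and 2 lay above all IκBα-deficient arrays and control 3 lay level with the lowest of them. The difference was -0.10 ± 0.08 (SE), with an interval of -0.29 to 0.08. Without control array 3 it was -0.17. Probe set 1423341_at of the same gene gave 7.16, 7.29 and 7.27 in IκBα-deficient animals, against 7.18, 7.15 and 7.30 in controls, a difference of 0.03 ± 0.08 (SE) with an interval of -0.15 to 0.20, and -0.004 without control array 2. The 2 probe sets of Cspg4 thus differed in sign.

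Gpr17 encodes a G protein-coupled receptor that appears for a short time in committed precursors. Its single probe set, 1456833_at, was at 9.00, 9.00 and 9.09 in IκBα-deficient animals, against 9.11, 9.09 and 9.28 in controls. The groups met at 9.09, where IκBα-deficient array 3 and control array 2 lay level, and control array 3 was the highest. The difference of Gpr17 was -0.13 ± 0.08 (SE), or 1.10-fold lower, with an interval of -0.32 to 0.05. It was the most negative of the 11 differences and did not pass the test (unadjusted p = 0.140, limma). Without control array 3 it was -0.07.

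Sox10 encodes the transcription factor that precursors and oligodendrocytes share and that drives myelin genes. Probe set 1451689_a_at of Sox10 was at 10.07, 10.11 and 10.11 in IκBα-deficient animals, against 9.95, 9.91 and 10.05 in controls. It was the 1 probe set of the 11 with groups that did not overlap, beside 8.45% of all probe sets. The gap between the lowest IκBα-deficient and the highest control array was small, and the difference of 0.12 ± 0.07 (SE), 1.09-fold, had an interval of -0.04 to 0.29 (unadjusted p = 0.117, limma). It stayed positive under all alternatives run, between 0.09 and 0.16.

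The other Sox10 probe sets did not share that picture. Probe set 1424985_a_at was at 7.51, 7.21 and 7.27 in IκBα-deficient animals, against 7.45, 7.38 and 7.43 in controls. The IκBα-deficient animals held both the highest and the 2 lowest values, and the difference was -0.09 ± 0.09 (SE), with an interval of -0.30 to 0.13. Without IκBα-deficient array 1 it was -0.18, and without IκBα-deficient array 2 it was -0.03. The dim probe set 1425369_a_at was at 5.57, 5.69 and 5.69 in IκBα-deficient animals, against 5.68, 5.68 and 5.23 in controls. Control array 3 lay below all others, and the difference of 0.12 ± 0.13 (SE) was -0.03 without it. The suffix of all 3 names marks probe sets that read several transcripts of a gene.

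Olig1 and Olig2 encode related basic helix-loop-helix factors. Olig2 specifies the lineage, and Olig1 supports its maturation. In the RefSeq annotation of GRCm38.p6 the pair are near neighbours with 1 annotated gene, a long noncoding RNA, between them. Olig1 (1416149_at) was at 11.97, 11.83 and 11.95 in IκBα-deficient animals, against 11.95, 11.75 and 11.92 in controls. Array 2 was the lowest in both groups and the groups overlapped. The difference was 0.04 ± 0.08 (SE), with an interval of -0.15 to 0.24, and -0.02 without control array 2.

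Olig2 (1416232_at) was at 8.22, 7.72 and 8.16 in IκBα-deficient animals, against 8.11, 8.13 and 8.24 in controls. IκBα-deficient arrays 1 and 3 lay within the range of the controls, and IκBα-deficient array 2 lay far below all other arrays. The difference of -0.13 ± 0.13 (SE) had the lowest interval bound of the 11 probe sets, -0.44, or 1.36-fold lower, and an upper bound of 0.18. Without IκBα-deficient array 2 the difference was 0.03 ± 0.07 (SE). That array had the wide 3′ to 5′ gap given above and the highest mean of the meningeal genes, 8.64, against 7.73 and 7.64 on the other IκBα-deficient arrays and 7.60, 7.69 and 7.13 in controls. With the 3′ to 5′ gap as a covariate the difference of Olig2 was 0.02, and with the meningeal mean 0.09. The gap was wide on IκBα-deficient array 2 alone, so the first refit largely repeats leaving that array out. The meningeal mean was also highest there. Neither refit is a separate check, and the cause was not tested. The Sox10 probe set 1424985_a_at and the dim Pdgfra probe set 1421916_at were also lowest on IκBα-deficient array 2. Pdgfra 1421917_at was highest there, at 10.26. Sox10 1451689_a_at was level there with IκBα-deficient array 3, at 10.11 on both, above all other arrays.

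**Figure D1:**
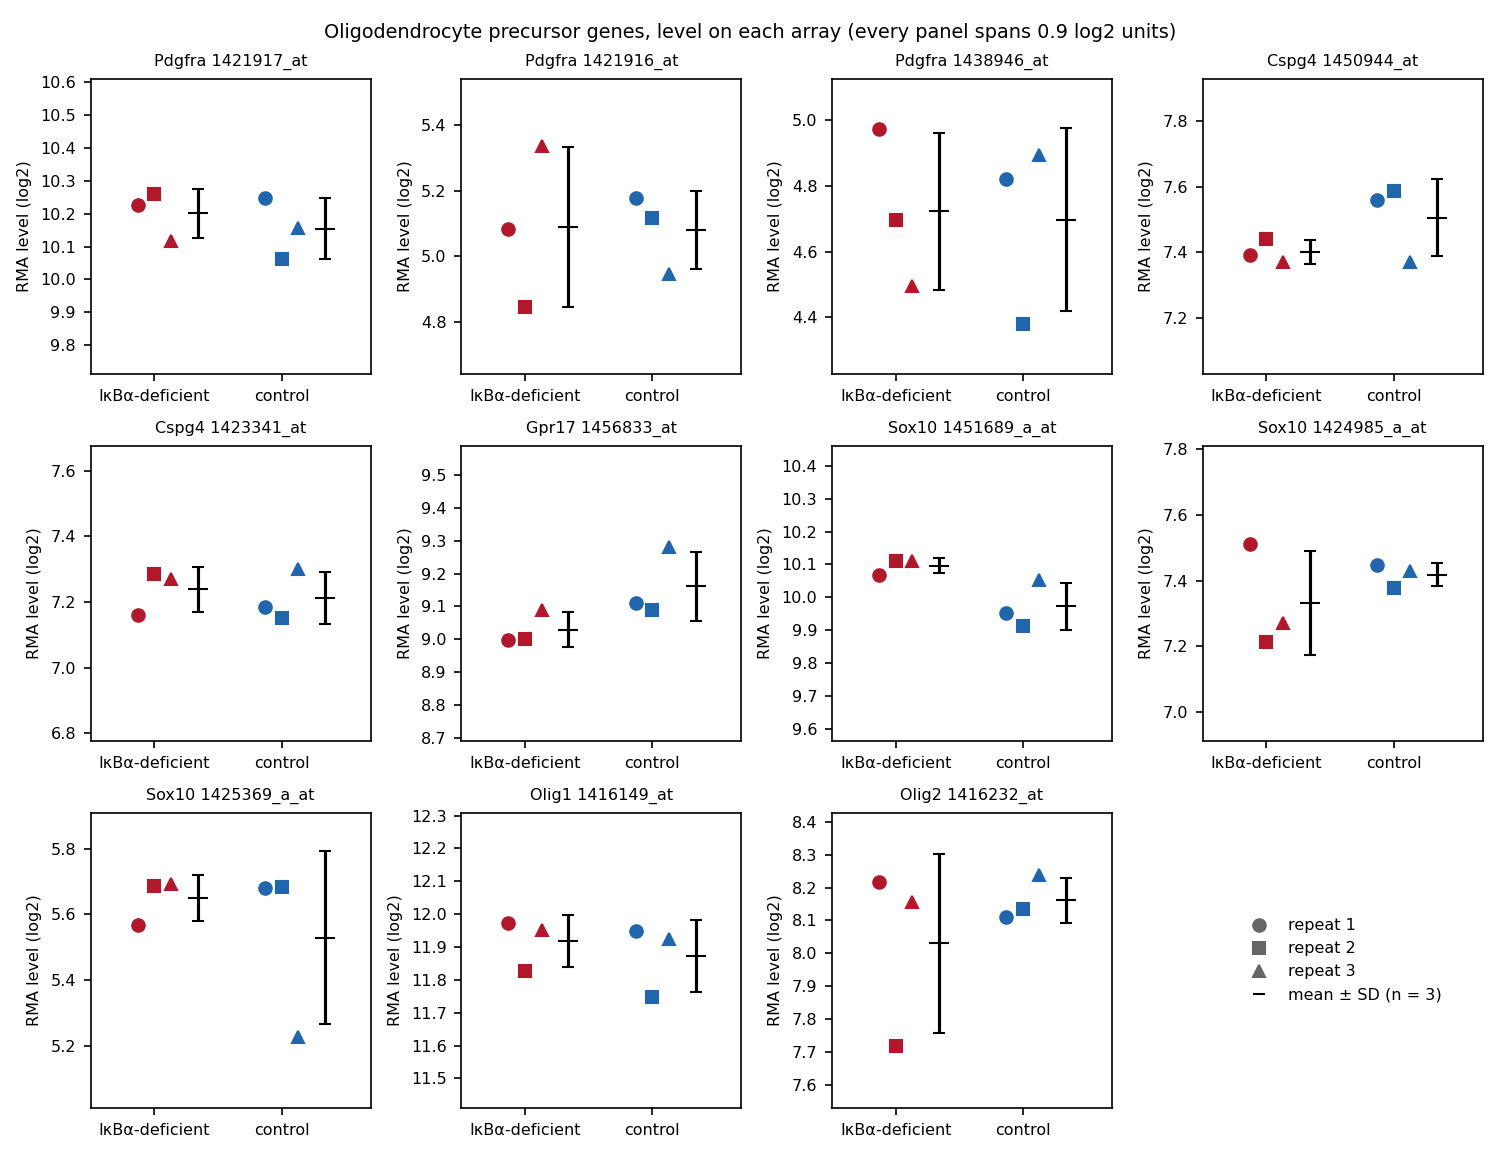
Level of each of the 11 probe sets (vertical axes, RMA log2 values, each panel spanning the same width) on the 3 IκBα-deficient and 3 control arrays, with symbols for the repeat number and the mean ± SD beside them. The groups overlap in every panel except Sox10 1451689_a_at, and the low square in the Olig2 panel is IκBα-deficient array 2 at 7.72.

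**Figure D2:**
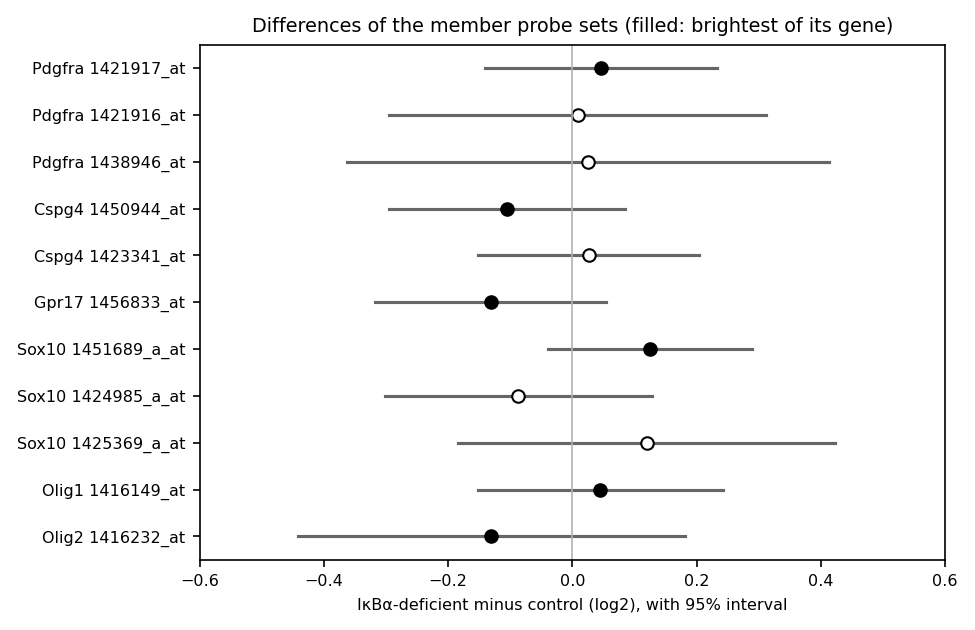
Difference between IκBα-deficient and control arrays for each probe set (horizontal axis, log2), with the 95% interval from limma; filled points are the brightest probe set of each gene. All 11 intervals cross 0, and the points lie between -0.13 and 0.12.

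The intervals give the sizes that these data leave. Over the 11 probe sets the lowest bound was 1.36-fold lower (Olig2) and the highest 1.34-fold higher, on the dim Sox10 probe set 1425369_a_at. Each interval covers its own probe set and was not widened for the number of them. Among the brightest probe sets of the 6 genes, 3 differences were positive (Pdgfra, Sox10 and Olig1) and 3 negative (Cspg4, Gpr17 and Olig2), beside 52.6% positive over the 18193 genes. Their median was -0.03, beside 0.01 over those genes. No array held the lowest or the highest value for all 11 probe sets. Control array 2 held the lowest value for 5 of the 11 probe sets, those of Olig1, Sox10 1451689_a_at, Cspg4 1423341_at and Pdgfra 1421917_at and 1438946_at. Over all genes, read by 1 probe set each, it was lowest for 16.3%. IκBα-deficient array 2 was lowest for 3 probe sets and highest for 2, beside 18.1% and 32.4% of all genes. Control array 1 was neither lowest nor highest for any, beside 13.6% and 9.89% of all genes. These shares are on unlike sets, since a member can enter by several probe sets.

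**Figure D3:**
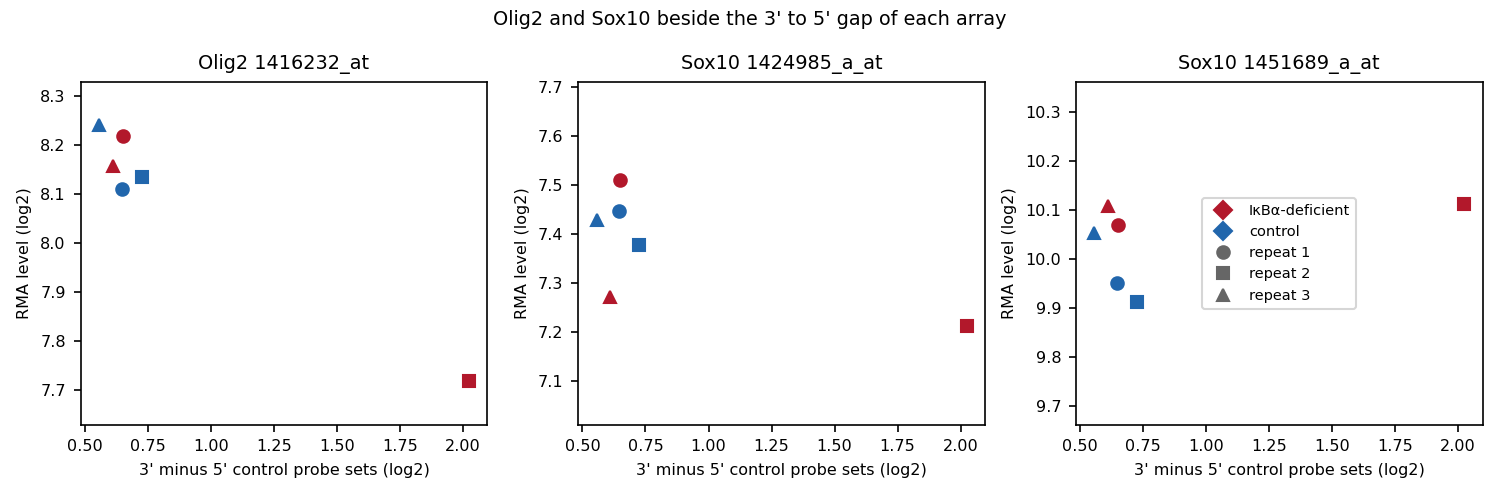
Level (vertical axes, RMA log2) of Olig2 and of 2 Sox10 probe sets against the 3′ minus 5′ gap of the same array (horizontal axes, log2), with red for IκBα-deficient and blue for control arrays. IκBα-deficient array 2, alone at a gap of 2.02, is the lowest array for Olig2 and Sox10 1424985_a_at. For Sox10 1451689_a_at it lies level with IκBα-deficient array 3.

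Genes with the most similar pattern were sought by Pearson correlation over the 6 arrays among 11974 genes at or above the median level. With so few arrays and so many genes, high values arise readily, and they are given as a description. Olig2 had the most company, with 900 genes above a correlation of 0.9, led by Stau1 (0.9996) and Sf3b6 (0.998). Stau1, which encodes an RNA-binding protein, was at 8.74, 8.29 and 8.68 in IκBα-deficient animals, against 8.63, 8.66 and 8.75 in controls, with the same low IκBα-deficient array 2. For the other members between 20 and 133 genes passed 0.9. The closest were Mapk8 and Ndufb8 for Pdgfra, Tnnc1 and Lrp1 for Cspg4, Zfp664 and Plekha4 for Gpr17, Tspan33 and Kiz for Sox10, and Eci1 and Ppargc1a for Olig1, at 0.955 to 0.998.

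The rest of the lineage was read from 6 gene lists, 1 probe set per gene, that held 103 measured genes. None of the 103 passed the adjusted threshold (limma), beside 0% of all 18193 genes on the same probe sets. At an unadjusted p under 0.05 there were 10 genes, or 9.71%, all 10 higher in IκBα-deficient animals, beside 2.61% of all genes higher and 1.06% lower. Of the 103, 4 to 9 were higher and 0 lower at that threshold with single arrays left out. In those fits 1.7% to 3.9% of all genes were higher and 0.682% to 1.72% lower. There were 5 higher without IκBα-deficient array 2, beside 1.98% of all genes. Without control array 1 there were 4, beside 2.38%, and without control array 2 also 4, beside 1.75%. Some of the listed genes are also made by astrocytes, vessels or meninges, whose lists are given after them. The part of other cell types in this count was not tested. The lists were chosen with earlier results of these data known, and the shares over all genes include dim genes. The count and the shares are therefore given as a description only.

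Of 19 other measured genes of precursors, 12 differences were positive and 7 negative, with a median of 0.06 that was 0.0069 without IκBα-deficient array 2 and 0.021 without control array 2. Ednrb, the endothelin receptor B, which astrocytes express too, was at 9.79, 9.60 and 9.55 in IκBα-deficient animals, against 9.31, 9.31 and 9.27 in controls. Every IκBα-deficient array lay above every control, by 0.35 ± 0.08 (SE) on average (unadjusted p = 0.00329, adjusted p = 1.00, limma). Nkx2-2, a homeodomain factor of committing precursors, was at 6.93, 6.94 and 6.96 in IκBα-deficient animals, against 6.73, 6.61 and 6.80 in controls, also without overlap, with a difference of 0.23 ± 0.08 (SE). The next in order of p were Cacng4, an auxiliary subunit of AMPA receptors, at 0.11, and Ostf1 at -0.23. Ostf1 was low on IκBα-deficient array 2 alone, at 7.56, against 8.17 and 8.12 on the other IκBα-deficient arrays.

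Genes of committed and newly forming oligodendrocytes, the stage that Gpr17 marks, were split, 7 positive and 5 negative of 12, with a median of 0.01. Bcas1, a marker of early myelinating cells, was at 12.58, 12.50 and 12.43 in IκBα-deficient animals, against 12.28, 12.22 and 12.40 in controls. The groups did not overlap, although IκBα-deficient array 3 and control array 3 were close, and the difference was 0.20 ± 0.08 (SE, unadjusted p = 0.0373, limma). Fyn, a kinase that relays axonal signals to myelination, differed by -0.13, Tmem163 by 0.09 and Rras2 by -0.09. The median was -0.012 without IκBα-deficient array 2 and -0.0028 without control array 2.

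Of 20 measured regulators of differentiation, 12 differences were positive and 8 negative, with a median of 0.02 that was -0.0063 without IκBα-deficient array 2, 0.0028 without control array 2, 0.0026 when IκBα-deficient array 3 was dropped and 0.054 when array 1 of that group was. Sox2, a factor of neural progenitors and astrocytes, was at 10.37, 10.13 and 10.19 in IκBα-deficient animals, against 9.80, 10.08 and 9.81 in controls, a difference of 0.33 ± 0.11 (SE, unadjusted p = 0.0151, limma). Hes5 and Id2, which hold back differentiation, differed by 0.25 and 0.13, and the related Hes1 by -0.13. None of the last 3 passed even the unadjusted threshold.

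Among PDGF and FGF ligands, receptors and signalling proteins, 11 of 16 differences were positive, with a median of 0.05. An unadjusted p under 0.05 (limma) was found for 4 genes, all higher, beside 2.61% of all genes higher. The median was 0.019 without IκBα-deficient array 2, 0.074 when array 1 of that group was left out and 0.0078 with the meningeal covariate. The receptor Fgfr2 was at 9.68, 9.57 and 9.58 in IκBα-deficient animals, against 9.50, 9.38 and 9.38 in controls (difference 0.19 ± 0.07 SE). Pik3r1, the regulatory subunit of PI3 kinase, differed by 0.20 and the dim ligand gene Fgf2 by 0.18. Pdgfrb, the receptor of pericytes and meningeal cells and also on the pericyte list, differed by 0.39, with IκBα-deficient array 2 at 9.70, against 9.16 and 9.07 on the other IκBα-deficient arrays.

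A list of other signalling genes of the lineage, from receptors and ligands to the effectors of the Wnt and Hedgehog pathways, gave 11 positive differences of 19. Its median of 0.01 was -0.015 without IκBα-deficient array 2, 0.052 without IκBα-deficient array 1, 0.0086 without IκBα-deficient array 3 and 0.0073 when control array 1 was left out. Smo, the transducer of Hedgehog signals, was at 8.56, 8.81 and 8.68 in IκBα-deficient animals, against 8.44, 8.40 and 8.43 in controls, without overlap (difference 0.26 ± 0.08 SE, unadjusted p = 0.0139, limma). The next in order of p were Lpar1, a lysophosphatidic acid receptor of oligodendrocytes, at 0.14, the secreted ligand Shh at 0.19 and the dim gene Gli1 at 0.17, none with an unadjusted p under 0.05. Ptch1, the receptor of Shh, was looked up after the values were seen and differed by -0.0028.

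Genes of myelinating cells, a later stage of the lineage, gave 15 positive and 2 negative differences of 17, with a median of 0.05. The range was narrow, from -0.01 to 0.19. Apod, a lipid carrier also made by meningeal and vascular cells, was at 12.10, 11.98 and 11.96 in IκBα-deficient animals, against 11.80, 11.75 and 11.92 in controls (difference 0.19 ± 0.08 SE, unadjusted p = 0.0428, limma). Aspa differed by 0.16, the tight junction gene Cldn11 by 0.11 and the galactolipid enzyme gene Ugt8a by 0.08. The list means overlapped, at 10.96, 10.69 and 10.78 in IκBα-deficient animals, against 10.79, 10.62 and 10.85 in controls. The median was 0.0026 without IκBα-deficient array 1, 0.12 without IκBα-deficient array 2, 0.0023 without control array 2 and 0.10 without control array 3. It was 0.085 when control array 1 was left out and 0.075 when IκBα-deficient array 3 was dropped, -0.0058 with the choroid plexus mean as a covariate and 0.18 with the meningeal mean.

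**Figure D4:**
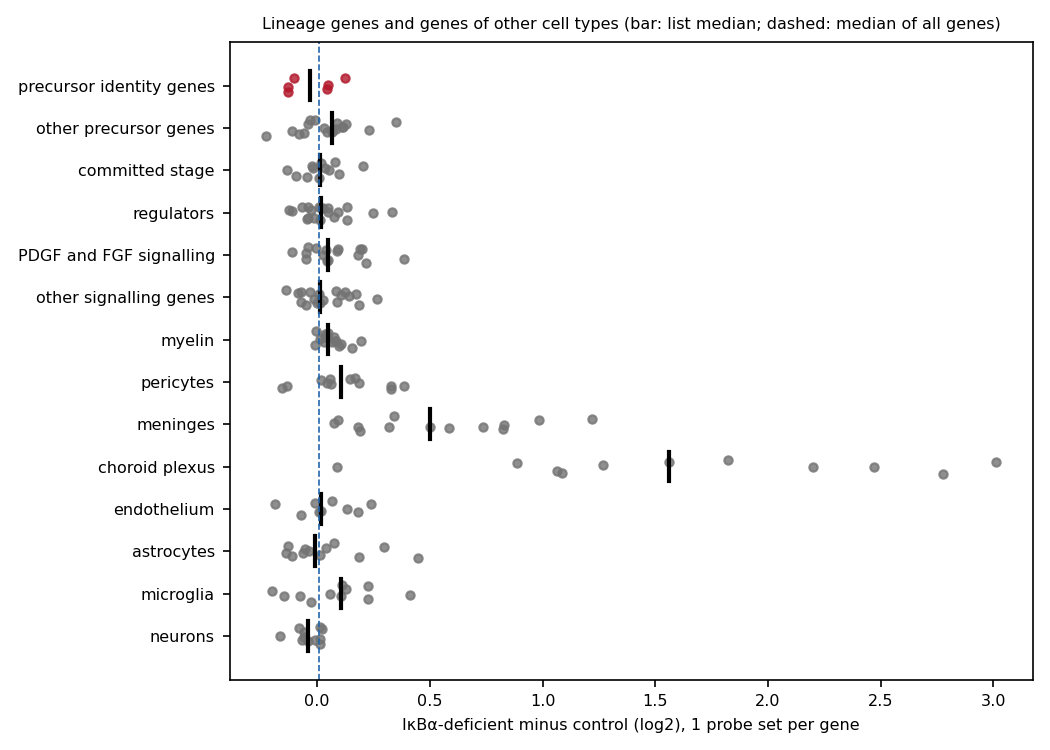
Difference of each gene (horizontal axis, log2, 1 probe set per gene) in the 6 precursor identity genes (red), the other lineage lists and the lists of other cell types, with the list median as a bar and the median of all genes as a dashed line. The identity genes lie between -0.13 and 0.12, while the choroid plexus median is at 1.56 and the meningeal median at 0.50.

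Genes of neighbouring tissue differed most in size. All 11 measured choroid plexus genes had positive differences, with a median of 1.56. Of these, 10 had an unadjusted p under 0.05, beside 2.61% of all genes higher, and 0 passed after adjustment (limma). Sostdc1, Clic6, Aqp1 and Otx2, the first in order of p, differed by 1.27 to 3.01. The list mean was 8.57, 8.00 and 7.67 in IκBα-deficient animals, against 7.80, 5.76 and 5.71 in controls, so control array 1 lay above IκBα-deficient array 3. All 13 meningeal genes had positive differences, with a median of 0.50 that was 0.19 without IκBα-deficient array 2, 0.25 without control array 3 and 0.79 when IκBα-deficient array 1 was dropped. The first in order of p were Igf2 (1.22), Slc13a4 (0.98), Lum (0.32) and Col1a2 (0.83). Meningeal fibroblasts express Pdgfra, whose 3 probe sets differed by 0.01 to 0.05. Of 12 genes of pericytes and smooth muscle, which express Cspg4, 10 had positive differences, with a median of 0.10, among them Abcc9 (0.33), Anpep (0.33) and Pdgfrb, and Higd1b differed by -0.14. The pericyte median was -0.041 without IκBα-deficient array 2, 0.0036 without control array 3, 0.19 when IκBα-deficient array 1 was dropped, and -0.08 with the meningeal covariate.

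Astrocyte genes were split, 6 positive and 6 negative, with a median of -0.01, from Aqp4 (0.45), Gfap (0.30) and Sox9 (0.18) to S100b (-0.14). Microglial genes had 7 positive and 4 negative differences and a median of 0.11 (0.059 without IκBα-deficient array 3), with Gpr34 at 0.41, P2ry13 at 0.22, Ptprc at 0.23 and Cx3cr1 at 0.11. Of 9 endothelial genes 6 were positive, with a median of 0.02, Kdr at 0.24, Abcb1a at 0.18, Pecam1 at -0.19 and Slco1a4 at 0.13. Of 11 neuronal genes 4 were positive, with a median of -0.04, and Slc17a7 (-0.17), Rbfox3 (-0.08), Nefl (-0.07) and Camk2a (-0.06) were the first in order of p. Over 17 alternatives the list median ran from -0.032 to 0.013 for astrocytes and from 0.059 to 0.20 for microglia. It ran from -0.051 to 0.069 for endothelium and from -0.064 to 0.00063 for neurons. In these 4 lists 0 genes passed the adjusted threshold (limma). At an unadjusted p under 0.05, 2 astrocyte, 3 microglial, 1 endothelial and 0 neuronal genes were higher and 0 lower. At that threshold 3 meningeal and 2 pericyte genes were higher and 0 lower. Over all genes 2.61% were higher and 1.06% lower.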

How the data were processed

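The deposited table held log2 values that had been made with RMA (background correction, quantile normalization and probe summary), per the submitters' processing notes. No source used here names the RMA version, its probe annotation or a genome build, and coordinates are left out for that reason. Names of probe sets came from the platform annotation at GEO, an older table. The 6 member symbols matched RefSeq genes by Entrez identifier. Control probe sets (64 of 45101) were left out, and no dim probe set was filtered. limma 3.58.1 in R 4.3.3 (lmFit, eBayes, genotype as the only term, two-sided) was fitted to all 45037 probe sets, with Benjamini-Hochberg adjustment over all of them and a threshold of 0.05. Intervals are limma's 95% intervals. In gene lists, a gene was read by its brightest probe set (mean of the 6 arrays). No set test was run. The members and lists were chosen with earlier results of these data known. All member probe sets are named, with the 4 genes of smallest p in each list and the 2 genes closest to each member in pattern. The labels call the arrays biological repeats of separate animals. The series' design text speaks of 3 littermate pairs, and the labels number the repeats 1 to 3 in both groups without saying that a number marks a litter. Same-numbered arrays deviated from their group means with correlations of -0.0044, 0.273 and 0.0327. Deviations sum to 0 within each group of 3, so these correlations cannot decide whether a number marks a litter. As the labels do not say so, the numbers were not taken as pairs and the main fit is unpaired.

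The fit was repeated without each array, with the repeat number as a block, after another quantile normalization or median centring, without the dimmest 40% of probe sets, with limma's trend and robust options, with array weights, and with fewer features, other thresholds, or covariates for the choroid plexus mean, the meningeal mean and the 3′ to 5′ gap. For the lists, the same alternatives were chosen after seeing the data. The fit was tested on 20 simulated datasets of 45037 probe sets, 200 of them changed in each. Of the planted differences, 76.6% of size 1 and 27.7% of size 0.5 (log2) were recovered. The real fit called 3 probe sets, and the adjusted threshold is stricter when fewer pass. Nfkbia 1420088_at, at -1.40, and Aqp4, at 0.45, were not called in it. These shares therefore may overstate recovery and do not give that of the real fit. False calls made up 4.14% of calls, and 94.5% of the 95% intervals held the true difference. Simulated probe sets varied independently. Figures were drawn with matplotlib 3.10.9.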

Additional observations from a re-analysis of the deposited data

How the results depend on the processing

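No member probe set was called under any of the alternatives, where the smallest adjusted p was 0.837 (limma), and 4 of the 11 kept their sign in all of them, namely Sox10 1451689_a_at and 1424985_a_at, Cspg4 1450944_at and Gpr17. The other 7 turned sign at least once, in 17 of 180 refitted values. With single arrays left out, the difference ran from -0.018 to 0.090 for Olig1, -0.22 to 0.026 for Olig2, -0.00047 to 0.092 for Pdgfra 1421917_at, -0.12 to 0.13 for Pdgfra 1421916_at, -0.13 to 0.14 for Pdgfra 1438946_at, -0.0043 to 0.071 for Cspg4 1423341_at and -0.032 to 0.20 for Sox10 1425369_a_at. With the choroid plexus covariate it was -0.042 for Olig1, -0.072, -0.054 and -0.21 for Pdgfra 1421917_at, 1421916_at and 1438946_at, and -0.012 for Sox10 1425369_a_at. With the meningeal covariate it was 0.094 for Olig2 and -0.0043 for Sox10 1425369_a_at, and with the 3′ to 5′ gap 0.023 for Olig2. The cause was not tested. With the repeat number as a replicate block the differences were the same by construction, 2 probe sets were called lower instead of 3, and 0 members were called. IκBα-deficient arrays 2 and 3 correlated best with the control of their own number, and IκBα-deficient array 1 with control array 3.

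Over all probe sets, 0 were called higher and 3 lower. Leaving out single arrays gave 0 to 6 higher and 1 to 4 lower. With the meningeal covariate or the 3′ to 5′ gap 1 was called lower, and 0 with the choroid plexus covariate or 1 probe set per gene. The unadjusted threshold of 0.05 gave 968 higher and 537 lower probe sets. It gave 10 genes in the lineage lists and 21 in the lists of other cell types, with Pdgfrb in both counts. Those 7 lists had 0 genes called, and 0 to 2 with single arrays left out (2 without control array 1). The medians of the 6 lineage lists lay between -0.015 and 0.18 over all alternatives. RMA values near the floor limit the dim Pdgfra and Sox10 probe sets.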
